A study of Mus musculus with 24 samples.

Results

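The genes of the collagen chains were followed in the livers of 24 female mice. A gene counted as a collagen chain gene where the array's own name for a non-control probe was Col, a number, the letter a and a number, as in Col1a1. This rule found 44 genes with 91 probes. Of these, 31 genes with 47 probes were tested, because at least 1 probe was well above background on every array of at least 1 group, and 13 genes were not. The filter lets a gene pass through the group in which it is high, so counts over the 31 describe the genes that passed and not the family as a whole. On all 24 arrays 22 of the 31 were well above background. All genes tested on the array, collagens included, numbered 22088.

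The mice were of a sv129/C57 background and 8 weeks old, and were either wild type (WT) or lacked LXRα and LXRβ (KO), the nuclear receptors for oxysterols encoded by Nr1h3 and Nr1h2. For 1 month they received water or fumonisin B1 (FB1), a mould toxin that blocks ceramide synthases, at 10 mg per kg of body weight per day. This gave 4 groups of 6 mice, WT on water, WT on FB1, KO on water and KO on FB1, with 1 one-colour array of liver RNA per mouse. Whether the genes were deleted in every tissue, and which parts of them, is unknown from the labels. Levels are log2 of the processed signal minus the array's 75th percentile, so that 0 is the 75th percentile of an array. A level can be compared between arrays for the same probe, not between probes. Differences are log2 differences of group means with their standard error (SE), and a gene was called where the limma p adjusted over all 22088 genes was under 0.05.

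Collagens are trimers of chains that wind into a triple helix. The fibril-forming collagens, types I, II, III, V and XI, make the cross-banded fibres that give tissue its tensile strength, and type XXVII is a related chain. Fibril-associated collagens bind to the surface of these fibres, type IV builds the sheet of basement membranes, type VI forms beaded filaments around cells, type VIII forms hexagonal nets, and the transmembrane collagens stay at the cell surface. In liver the fibrillar and type VI chains come mainly from stellate cells and portal fibroblasts, and their build-up is the hallmark of fibrosis, while type XVIII is made largely by hepatocytes.

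The deleted genes were lower in the libraries labelled KO than in those labelled WT, and their probes were still well above background on all 12 KO arrays. Nr1h3 lay between 4.71 and 5.06 on WT arrays and between -5.13 and -2.56 on KO arrays, and Nr1h2 between 4.02 and 4.34 and between 0.31 and 0.80. Between 58.7% and 64.5% of the 59305 non-control spots of an array were well above background, and 0 were saturated. Each of the 3 slides carried 8 arrays, 2 of each group. All 11 tested hepatocyte markers were well above background on every array. The liver was measured whole, so fewer cells of a type and less RNA per cell cannot be told apart.

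**Figure D1:**
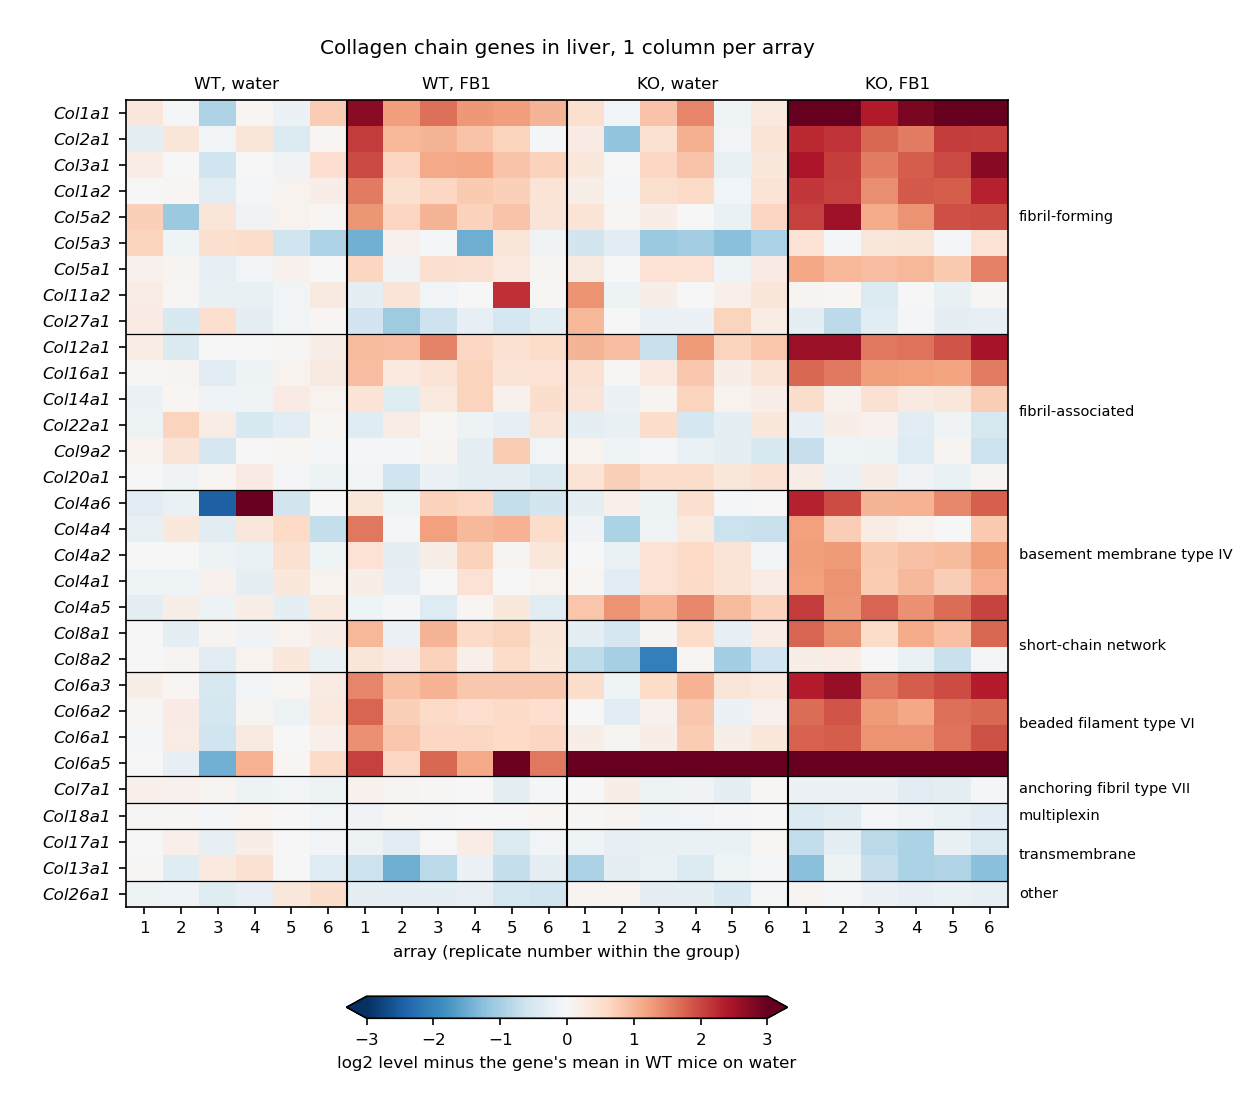
Levels of the 31 tested collagen chain genes on the 24 arrays. Each column is 1 array, grouped by genotype and treatment, each row a gene, grouped by class, and the colour is the log2 level minus the gene's mean in WT mice on water, with values beyond 3 either way shown at the end of the scale. Col1a1, Col1a2, Col2a1, Col3a1, Col5a2, Col12a1, Col4a5, Col6a1, Col6a2 and Col6a3 are among the genes reddest in KO mice on FB1, Col6a5 is high in both KO groups, and Col7a1, Col18a1, Col17a1, Col13a1 and Col26a1 are pale or blue in KO mice on FB1.

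FB1 raised collagen chain genes in both genotypes, and more of them passed the test in KO mice. In WT mice 8 of the 31 were higher and 0 lower, where 2.06% of all genes were called higher and 0.824% lower. Without adjustment of p, 14 were higher and 4 lower, where 1797 and 2193 of all 22088 genes were. In KO mice 19 were higher and 5 lower, where 16.5% of all genes were called higher and 24.6% lower (41.2% either way). The median difference over the 31 genes was 0.31 in WT and 0.86 in KO, beside -0.03 and -0.075 over all genes. Over the 22 genes well above background on all 24 arrays it was 0.16 in WT and 0.82 in KO, with 7 higher and 0 lower in WT and 13 higher and 5 lower in KO. Of the 8 rises in WT, 7 (87.5%) were among the 19 of KO mice, of which they made 36.8%. The exception was Col6a5, which passed in KO under 3 other settings. The 6 arrays on FB1 lay wholly apart from the 6 on water for 8 genes in WT (2.33% of all genes do so) and for 17 in KO (18.4% of all genes do so).

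By class the fibril-forming chains held 3 rises and 0 falls among 9 tested in WT mice (median 0.76) and 7 rises and 1 fall in KO mice (median 1.64). Type VI held 4 rises among 4 in WT (median 0.88) and 3 among 4 in KO (median 1.40). Type IV held 0 calls among 5 in WT (median 0.076), with 1 higher before adjustment, and 5 rises among 5 in KO (median 0.87). Of these, Col4a6 passed the filter only through KO mice on FB1, the group in which it was high. Of the 6 fibril-associated genes 1 rose in WT (median 0.17), and 2 rose and 1 fell in KO (median 0.064). Both type VIII genes rose in KO (median 1.03) and neither was called in WT (median 0.48), where 1 was higher before adjustment. Both transmembrane genes fell in KO mice (median -0.47) and neither was called in WT (median -0.40), where 1 was lower before adjustment. Among the rises counted by class, Col2a1, Col5a2 and Col12a1 passed the filter only through the FB1 groups. Within slides 1, 2 and 3 the median over the 31 genes was 0.37, 0.28 and 0.28 for FB1 in WT and 0.76, 0.70 and 1.06 for FB1 in KO. All 8 genes called in WT and all 24 called in KO kept their direction within each of the 3 slides, and with slide as a block 7 rose in WT, and 19 rose and 4 fell in KO.

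**Figure D2:**
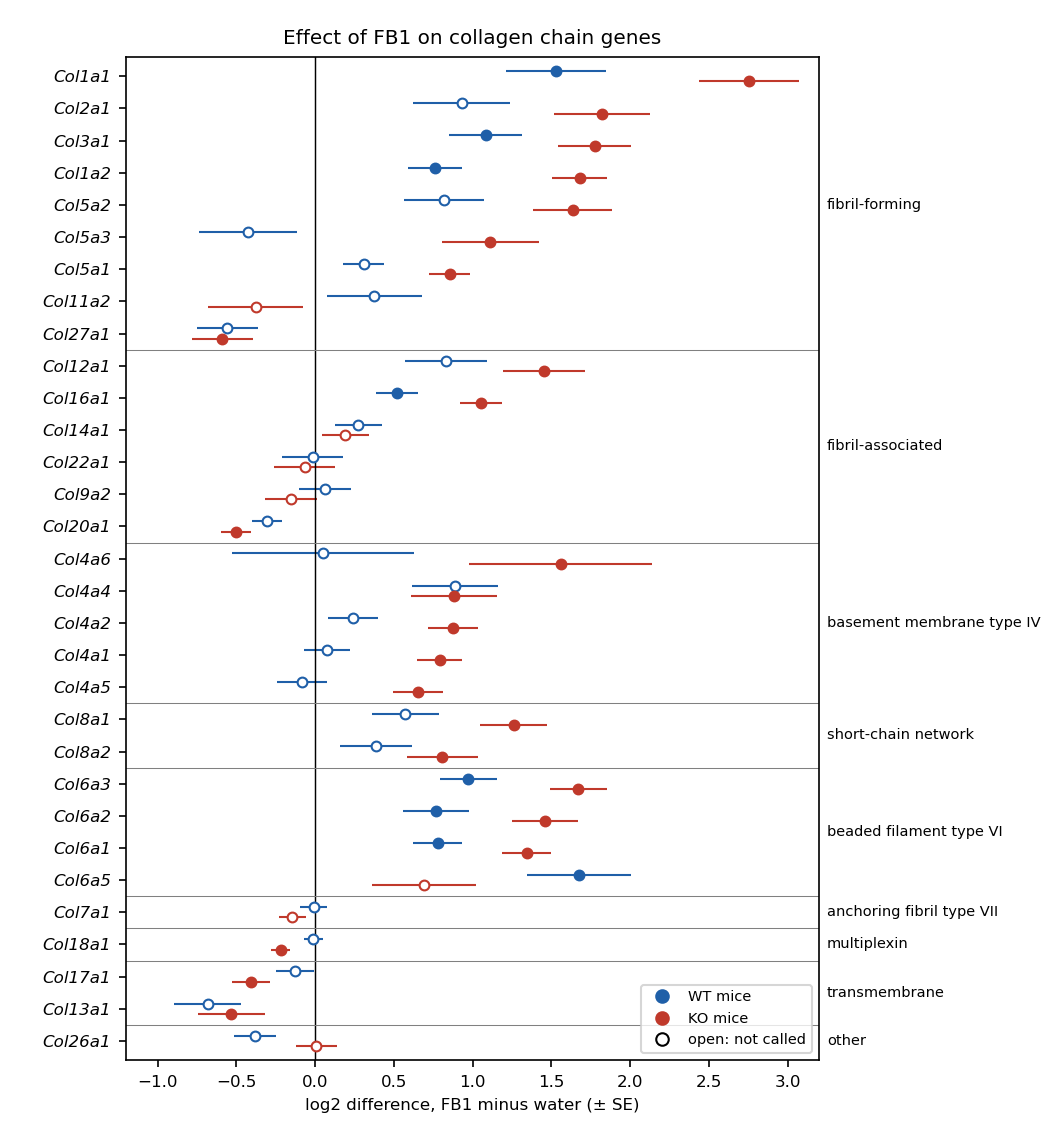
Log2 difference between FB1 and water for each tested collagen chain gene, with its SE (bars), in WT mice (blue) and KO mice (red), 6 arrays per group. Filled circles were called and open ones were not. Type VI chains were called in both genotypes except Col6a5 in KO, type IV chains in KO mice, and Col18a1, Col17a1, Col13a1, Col20a1 and Col27a1 lie to the left of 0 in KO mice.

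The type I and III chains, the main components of fibrous collagen, moved in both genotypes. Col1a1, the α1 chain of type I, is read by a probe at chromosome 11, 94813075 to 94813134 (mm9, the build of the array files; which exon or untranslated part a probe lies in was not looked up here). In WT mice Col1a1 lay between -2.47 and -0.79 (median -1.55) on water and between -0.52 and 1.16 (median -0.27) on FB1. In KO mice Col1a1 lay between -1.68 and -0.079 (median -1.16) on water and between 0.83 and 2.27 (median 1.84) on FB1. Every FB1 array lay above every water array of its genotype. The rise was 2.89-fold in WT (1.53 ± 0.32, adjusted p = 0.00698) and 6.75-fold in KO (2.75 ± 0.32, adjusted p = 9.5e-07), the largest among the 31 genes in KO. Its 3 tested probes differed little, from 1.44 to 1.66 in WT and from 2.72 to 3.01 in KO. Col1a2, the partner α2 chain, lies at chromosome 6, 4490619 to 4490678. In WT mice Col1a2 lay between 1.46 and 1.98 (median 1.83) on water and between 2.19 and 3.35 (median 2.45) on FB1. In KO mice Col1a2 lay between 1.69 and 2.35 (median 2.08) on water and between 3.19 and 4.10 (median 3.73) on FB1. The highest WT array on FB1, replicate 1 at 3.35, reached into the range of the KO mice on FB1, and no WT array on water did. Col1a2 rose 1.7-fold in WT (0.76 ± 0.17, adjusted p = 0.0143) and 3.21-fold in KO (1.68 ± 0.17, adjusted p = 2.49e-07). The other tested Col1a2 probes gave 0.97 and 0.70 in WT and 1.23 and 1.32 in KO. Col3a1, whose chain forms type III fibres beside type I, lies at chromosome 1, 45405589 to 45405648. Col3a1 read between 0.49 and 1.59 (median 1.09) in WT mice on water and between 1.75 and 3.08 (median 2.10) with FB1. Col3a1 in KO mice read between 0.88 and 1.94 (median 1.42) on water and between 2.63 and 3.82 (median 3.12) with FB1. Again no FB1 array overlapped the water arrays of its genotype. Col3a1 rose 2.12-fold in WT (1.08 ± 0.23, adjusted p = 0.00908) and 3.42-fold in KO (1.78 ± 0.23, adjusted p = 3.92e-06). Its other tested probes gave 1.12 and 0.99 in WT and 1.62 and 1.22 in KO.

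**Figure D3:**
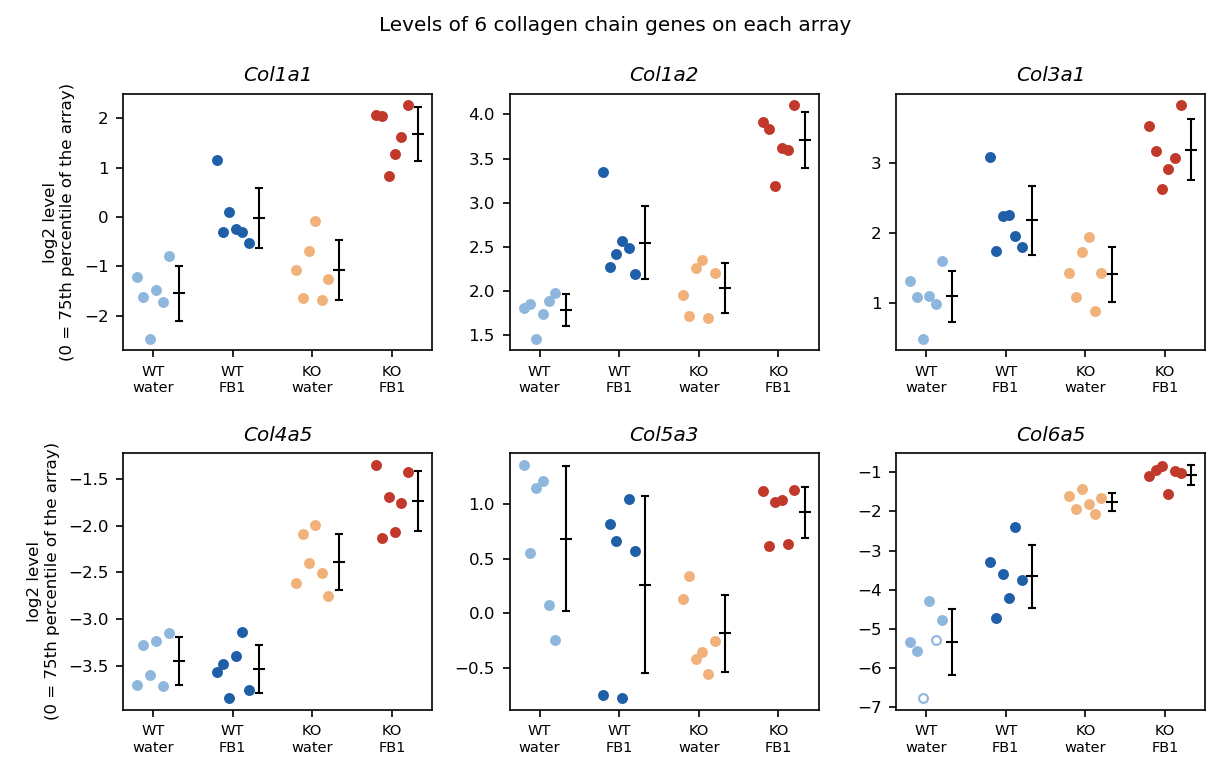
Log2 level of 6 collagen chain genes on each array (points; open where not well above background), with the group mean and SD to the right of each group, n = 6. Col1a1, Col1a2 and Col3a1 step up with FB1 in both genotypes, Col4a5 is higher in KO and rises there, Col5a3 spreads widely within WT mice, and Col6a5 is at -2.08 or above on all KO arrays.

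Since these genes moved together, the bases just before their annotated starts are shown, with that of Col18a1, which did not rise, for contrast. The sequences are the 150 bases upstream of the start in RefSeq's annotation of GRCm38.p6, read on the strand of the gene. Capitals mark the CCAAT box (CCAAT), the TATA box (TATAAA) and the GC box (GGGCGG), each also in its reverse complement.
Col1a2, chr6:4505468-4505617, plus strand: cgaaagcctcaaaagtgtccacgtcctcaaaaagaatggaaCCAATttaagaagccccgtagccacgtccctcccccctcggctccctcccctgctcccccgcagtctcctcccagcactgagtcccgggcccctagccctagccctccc
Col3a1, chr1:45311388-45311537, plus strand: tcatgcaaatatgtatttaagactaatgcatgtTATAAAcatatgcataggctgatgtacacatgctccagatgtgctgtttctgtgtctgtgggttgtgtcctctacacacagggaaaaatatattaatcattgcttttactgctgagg
Col6a1, chr10:76726045-76726194, minus strand: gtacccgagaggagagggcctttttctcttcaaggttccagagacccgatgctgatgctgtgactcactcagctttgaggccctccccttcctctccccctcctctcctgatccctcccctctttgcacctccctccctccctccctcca
Col18a1, chr10:77166531-77166680, minus strand: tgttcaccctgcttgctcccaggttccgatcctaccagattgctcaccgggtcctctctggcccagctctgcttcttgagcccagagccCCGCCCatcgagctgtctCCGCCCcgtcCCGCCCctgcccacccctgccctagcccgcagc
Col1a2 has a CCAAT that begins 109 bases before its start and Col3a1 a TATAAA that begins 117 bases before it. None of the 3 motifs stands in the window of Col6a1, and Col18a1 has GGGCGG on the opposite strand at 61, 43 and 33 bases. The GC content was 62.7% for Col1a2, 37.3% for Col3a1, 60.0% for Col6a1 and 68.0% for Col18a1. Promoter windows were at hand for 24 of the 31 tested genes, 26 windows in all, and were searched over 250 bases before the start on both strands. CCAAT stood in 9 of the 26 windows (34.6%) and in 33.8% of the 32851 windows of all genes. TATAAA stood in 4 (15.4%, against 12.4%) and GGGCGG in 17 (65.4%, against 32.7%). A direct repeat of AGGTCA with 4 bases between, the form of element that LXR binds with its partner RXR, stood in 0 collagen windows and in 0.0152% of all windows. A match is a description of letters and no evidence of binding, and a missing one says only that these letters are not in the window.

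Type V collagen is a minor chain of type I fibres that sets their diameter. Col5a1 encodes its main chain. In WT mice Col5a1 lay between 0.17 and 0.57 (median 0.47) on water and between 0.32 and 1.08 (median 0.81) on FB1. In KO mice Col5a1 lay between 0.30 and 0.86 (median 0.69) on water and between 1.22 and 1.93 (median 1.43) on FB1. The 2 groups of KO mice did not overlap, while those of WT mice did. Col5a1 rose 1.81-fold in KO (0.86 ± 0.13, adjusted p = 2.36e-05) and missed the threshold in WT (0.31 ± 0.13, adjusted p = 0.21). Col5a2, its usual partner, was dim on water, with 3 of 6 WT arrays and 2 of 6 KO arrays well above background. Col5a2 read between -6.99 and -5.16 (median -5.79) in WT mice on water and between -5.48 and -4.54 (median -5.09) with FB1. Col5a2 in KO mice read between -6.06 and -5.23 (median -5.73) on water and between -4.76 and -3.33 (median -3.92) with FB1. The KO arrays on FB1 stood apart and the gene rose 3.11-fold (1.64 ± 0.25, adjusted p = 2.72e-05), or by 1.56 with dim arrays raised to their array's lowest signal well above background. It was 0.43 with normexp correction and 0.64 in the authors' deposited values, still called. In WT the difference was 0.82 ± 0.25, adjusted p = 0.0839. Col5a3 encodes a rarer chain of the type. In WT mice Col5a3 lay between -0.25 and 1.37 (median 0.85) on water and between -0.78 and 1.05 (median 0.62) on FB1. In KO mice Col5a3 lay between -0.56 and 0.34 (median -0.31) on water and between 0.62 and 1.13 (median 1.03) on FB1. Its WT values were scattered, with replicates 5 and 6 on water and replicates 1 and 4 on FB1 below the rest of their groups, whereas all KO arrays on FB1 lay above all KO arrays on water. It rose 2.16-fold in KO (1.11 ± 0.31, adjusted p = 0.00626) and in WT gave -0.42 ± 0.31, adjusted p = 0.493.

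The remaining fibril-forming genes are not typical of liver or changed little. Col2a1, the chain of cartilage collagen, was near the detection limit, with 4 of 6 arrays well above background in each water group and 6 of 6 in each FB1 group. Col2a1 read between -5.93 and -5.15 (median -5.53) in WT mice on water and between -5.58 and -3.41 (median -4.59) with FB1. Col2a1 in KO mice read between -6.71 and -4.45 (median -5.18) on water and between -3.99 and -3.29 (median -3.42) with FB1. KO arrays on FB1 all exceeded the KO arrays on water, and the call in KO was 3.53-fold (1.82 ± 0.31, adjusted p = 6.72e-05). With normexp correction the difference was 0.47 and in the authors' deposited values 0.72, still called. In WT it was 0.93 ± 0.31, adjusted p = 0.103. Col27a1, a fibrillar chain of growing cartilage, fell in KO mice. In WT mice Col27a1 lay between -2.83 and -1.86 (median -2.39) on water and between -3.43 and -2.61 (median -2.92) on FB1. In KO mice Col27a1 lay between -2.55 and -1.38 (median -2.26) on water and between -3.16 and -2.42 (median -2.64) on FB1. The groups overlapped in both genotypes. Its difference was -0.59 ± 0.19, adjusted p = 0.0186, in KO and -0.56 ± 0.19, adjusted p = 0.125, in WT, and the call in KO was lost without 3 of the 24 arrays in turn (KO on water replicate 1 or 5, or KO on FB1 replicate 2; adjusted p up to 0.0571) and with the mean of its probes (-0.25, adjusted p = 0.303). Col11a2 was not called in any comparison, with differences of 0.38 ± 0.30 in WT and -0.38 ± 0.30 in KO.

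Type VI collagen, assembled from an α1, an α2 and one further chain, was the class called most completely in WT mice. Col6a1 (chromosome 10, 76171538 to 76171597) and Col6a2 (chromosome 10, 76058931 to 76058990) are neighbours on chromosome 10. In WT mice Col6a1 lay between -0.64 and 0.24 (median 0.052) on water and between 0.56 and 1.34 (median 0.61) on FB1. In KO mice Col6a1 lay between 0.05 and 0.75 (median 0.17) on water and between 1.32 and 1.88 (median 1.67) on FB1. Col6a1 rose 1.71-fold in WT (0.78 ± 0.16, adjusted p = 0.00514) and 2.54-fold in KO (1.34 ± 0.16, adjusted p = 9.63e-07), and FB1 and water arrays did not overlap in either. Col6a2 read between -3.88 and -3.04 (median -3.29) in WT mice on water and between -2.85 and -1.59 (median -2.77) with FB1. Col6a2 in KO mice read between -3.67 and -2.53 (median -3.28) on water and between -2.20 and -1.47 (median -1.68) with FB1. Col6a2 also separated in both, with 1.7-fold in WT (0.77 ± 0.21, adjusted p = 0.0453) and 2.75-fold in KO (1.46 ± 0.21, adjusted p = 1.09e-05; 0.90 with normexp correction). Its call in WT was lost without any of 15 of the 24 arrays in turn, at adjusted p up to 0.109 without WT on FB1 replicate 1, where the difference was 0.57. Of the other settings 8 ended it too, among them quantile normalisation (0.71), normexp correction (0.41) and the authors' deposited values (0.53). Col6a3, which supplies the long further chain, is read at chromosome 1, 92663663 to 92663722. In WT mice Col6a3 lay between -1.37 and -0.66 (median -0.83) on water and between -0.10 and 0.57 (median -0.047) on FB1. In KO mice Col6a3 lay between -1.03 and 0.14 (median -0.45) on water and between 0.69 and 1.71 (median 1.26) on FB1. No FB1 array overlapped the water arrays of its genotype. Col6a3 rose 1.96-fold in WT (0.97 ± 0.18, adjusted p = 0.00294) and 3.18-fold in KO (1.67 ± 0.18, adjusted p = 4.7e-07). A probe named Col6a3 through an Ensembl transcript did not follow, with -0.13 ± 0.24 in WT and -0.44 ± 0.24 in KO, and with the mean of its 3 probes the WT call of Col6a3 was lost (0.44, adjusted p = 0.155) and its KO difference was 0.83.

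Col6a5, an alternative to that chain known from skin, lung and gut, was higher in KO than in WT mice with and without FB1. Its probe at chromosome 9, 105759441 to 105759500 was well above background on 4 of 6 WT arrays on water and on all 6 of each other group. In WT mice Col6a5 lay between -6.77 and -4.29 (median -5.31) on water and between -4.73 and -2.39 (median -3.68) on FB1. In KO mice Col6a5 lay between -2.08 and -1.44 (median -1.73) on water and between -1.56 and -0.83 (median -0.99) on FB1. Every KO array lay above every WT array. Without FB1 the KO level was 12-fold higher (3.58 ± 0.33, adjusted p = 2.29e-08) and with FB1 6.05-fold higher (2.60 ± 0.33, adjusted p = 2.04e-06), and the first value was 3.45 with dim arrays raised to their floor. With normexp correction the genotypes differed by 1.54 without and 1.58 with FB1, and by 2.09 without FB1 in the authors' deposited values, all past the threshold. FB1 raised it 3.2-fold in WT (1.68 ± 0.33, adjusted p = 0.00467), although the WT groups overlapped, and in KO gave 0.69 ± 0.33, adjusted p = 0.0981. The WT call was lost when the 2 WT groups alone were fitted (adjusted p = 0.0731) and with normexp correction (0.46, adjusted p = 0.0576), and the difference was 0.67 in the authors' deposited values. In KO it passed with normexp correction (0.50, adjusted p = 0.00337), in the authors' deposited values (0.56, adjusted p = 0.0156) and with the 2 KO groups alone (adjusted p = 0.00153). A second Col6a5 probe, at chromosome 9, 105765145 to 105766504, was well above background on all KO arrays and on no WT array. It lay between -4.47 and -3.58 (median -4.20) in KO mice on water and between -4.59 and -3.37 (median -3.84) in KO mice on FB1, which is at least 3.34-fold above WT without FB1 and at least 3.53-fold with it. Each of these bounds sets the mean of the bright arrays against the dim arrays' own signal or the lowest signal well above background on that array, whichever is higher. The other type VI genes on the array, Col6a4 and Col6a6, were not tested.

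Type IV chains were called in KO mice and not in WT mice. Col4a1 (chromosome 8, 11199009 to 11199068) and Col4a2 (chromosome 8, 11448840 to 11448899) encode the chains of the common basement membrane trimer and are neighbours on chromosome 8. In WT mice Col4a1 lay between 0.28 and 0.88 (median 0.56) on water and between 0.31 and 1.002 (median 0.62) on FB1. In KO mice Col4a1 lay between 0.25 and 1.15 (median 0.88) on water and between 1.30 and 1.92 (median 1.60) on FB1. KO arrays on FB1 stood above all others. Col4a1 rose 1.73-fold in KO (0.79 ± 0.15, adjusted p = 0.000174), and its difference in WT was 0.076 ± 0.15, adjusted p = 0.825. Col4a2 read between -0.21 and 0.45 (median -0.074) in WT mice on water and between -0.29 and 0.68 (median 0.25) with FB1. Col4a2 in KO mice read between -0.20 and 0.58 (median 0.19) on water and between 0.78 and 1.26 (median 1.09) with FB1. In KO it rose 1.83-fold (0.87 ± 0.16, adjusted p = 0.000138), without overlap, and in WT it gave 0.24 ± 0.16, adjusted p = 0.436. Col4a5 and Col4a6, which pair in the membranes of smooth muscle and kidney, are neighbours on the X chromosome. In WT mice Col4a5 lay between -3.71 and -3.14 (median -3.43) on water and between -3.84 and -3.13 (median -3.52) on FB1. In KO mice Col4a5 lay between -2.75 and -1.99 (median -2.45) on water and between -2.13 and -1.35 (median -1.73) on FB1. Col4a5 separated the genotypes on water and on FB1, and the KO groups overlapped each other. It rose 1.58-fold with FB1 in KO (0.66 ± 0.16, adjusted p = 0.00212; 0.40 with normexp correction) and gave -0.082 ± 0.16, adjusted p = 0.825, in WT. The genotypes differed 2.07-fold without FB1 (1.05 ± 0.16, adjusted p = 3.44e-05) and 3.45-fold with it (1.79 ± 0.16, adjusted p = 8.19e-09), or by 0.60 and 1.06 with normexp correction. Col4a6 read between -8.28 and -2.25 (median -6.09) in WT mice on water and between -6.52 and -5.12 (median -5.70) with FB1. Col4a6 in KO mice read between -6.09 and -5.33 (median -5.84) on water and between -4.80 and -3.52 (median -4.20) with FB1. Col4a6 was well above background on 2, 2 and 3 arrays of WT on water, WT on FB1 and KO on water, against 6 of KO on FB1. Its rise in KO was 1.56 ± 0.58, adjusted p = 0.0347, or 1.43 at the floor, and the call ended without KO on water replicate 1, 3, 5 or 6 or KO on FB1 replicate 1, 2 or 6 (adjusted p up to 0.076). In WT mice Col4a4 lay between -5.76 and -4.46 (median -5.01) on water and between -5.09 and -3.48 (median -4.05) on FB1. In KO mice Col4a4 lay between -5.99 and -4.76 (median -5.44) on water and between -5.04 and -3.83 (median -4.57) on FB1. Col4a4, a chain of the kidney's filter membrane, rose 1.84-fold in KO (0.88 ± 0.27, adjusted p = 0.0127) with overlapping groups, and WT gave nearly the same difference without a call (0.89 ± 0.27, adjusted p = 0.0827). Normexp correction and the authors' deposited values shrank these dim type IV genes, Col4a6 to 0.40 and 0.60 and Col4a4 to 0.18 and 0.29, and ended both calls.

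Among the fibril-associated genes Col12a1 and Col16a1 moved with FB1. Col16a1, found at the edges of fibrils and basement membranes, lies at chromosome 4, 129776333 to 129776392. In WT mice Col16a1 lay between -0.19 and 0.41 (median 0.20) on water and between 0.43 and 1.06 (median 0.57) on FB1. In KO mice Col16a1 lay between 0.18 and 0.95 (median 0.49) on water and between 1.32 and 1.87 (median 1.55) on FB1. The groups were apart in both genotypes, and the rise was 1.44-fold in WT (0.52 ± 0.13, adjusted p = 0.0303) and 2.08-fold in KO (1.06 ± 0.13, adjusted p = 2.45e-06). The WT call was lost without WT on water replicate 3 or 4 or WT on FB1 replicate 1 or 4, with adjusted p up to 0.0934, and in the authors' deposited values (0.50, adjusted p = 0.051). Col12a1, which lies on type I fibrils, was well above background on 3 WT and 5 KO arrays on water. Col12a1 read between -6.07 and -5.39 (median -5.62) in WT mice on water and between -5.18 and -4.14 (median -4.85) with FB1. Col12a1 in KO mice read between -6.30 and -4.35 (median -4.75) on water and between -4.04 and -3.04 (median -3.45) with FB1. FB1 and water arrays did not overlap, and Col12a1 rose 2.74-fold in KO (1.45 ± 0.26, adjusted p = 0.000134), or by 1.34 at the floor, 0.44 with normexp correction and 0.68 in the authors' deposited values. In WT the difference of 0.83 ± 0.26 missed the threshold (adjusted p = 0.0868), and passed with the 2 WT groups alone (adjusted p = 0.032). Col20a1 fell in KO mice. In WT mice Col20a1 lay between -0.32 and 0.082 (median -0.21) on water and between -0.77 and -0.25 (median -0.45) on FB1. In KO mice Col20a1 lay between 0.16 and 0.54 (median 0.32) on water and between -0.37 and 0.026 (median -0.19) on FB1. It fell by 0.50 ± 0.095 on the log2 scale in KO (adjusted p = 0.00023), with no overlap, and gave -0.31 ± 0.095, adjusted p = 0.0851, in WT. Col14a1, Col9a2 and Col22a1 were called in no comparison. Their differences were 0.28 ± 0.15, 0.065 ± 0.16 and -0.015 ± 0.19 in WT and 0.19 ± 0.15, -0.15 ± 0.16 and -0.064 ± 0.19 in KO.

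The chains of type VIII, made by vessel walls and remodelling tissue, rose in KO mice. In WT mice Col8a1 lay between -1.83 and -1.34 (median -1.48) on water and between -1.72 and -0.52 (median -0.92) on FB1. In KO mice Col8a1 lay between -2.04 and -0.99 (median -1.62) on water and between -0.99 and 0.20 (median -0.28) on FB1. The highest KO array on water and the lowest KO array on FB1 both read -0.99 at 2 decimals, the second being the higher, and Col8a1 rose 2.4-fold (1.26 ± 0.21, adjusted p = 7.35e-05), with 0.57 ± 0.21, adjusted p = 0.152, in WT. Col8a2 read between -5.14 and -4.50 (median -4.78) in WT mice on water and between -4.68 and -4.13 (median -4.48) with FB1. Col8a2 in KO mice read between -6.88 and -4.78 (median -5.70) on water and between -5.50 and -4.61 (median -4.85) with FB1. Col8a2 was well above background on 2 of 6 KO arrays on water and on all other arrays. It rose 1.75-fold with FB1 in KO (0.81 ± 0.23, adjusted p = 0.00652; 0.59 at the floor), with overlap, and in WT gave 0.39 ± 0.23, adjusted p = 0.378. On water its KO level was lower than in WT (-0.90 ± 0.23, adjusted p = 0.00776). Both calls of Col8a2 ended with normexp correction and with the authors' deposited values, where its rise in KO was 0.093 and 0.23.

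Col18a1, the precursor of the fragment endostatin, stayed near one level. In WT mice Col18a1 lay between 7.35 and 7.47 (median 7.44) on water and between 7.32 and 7.47 (median 7.42) on FB1. In KO mice Col18a1 lay between 7.30 and 7.49 (median 7.41) on water and between 7.02 and 7.38 (median 7.15) on FB1. The whole span over 24 arrays was thus from 7.02 to 7.49, and the KO groups overlapped. It fell by 0.22 ± 0.06 on the log2 scale in KO (adjusted p = 0.00588) and gave -0.01 ± 0.06, adjusted p = 0.951, in WT. The direction of this fall depended on the scaling, with 0.029 after quantile normalisation, 0.014 after normexp correction and 0.14 in the authors' deposited values. Col13a1 and Col17a1 are transmembrane collagens of cell contacts. Col13a1 read between -0.16 and 0.68 (median 0.24) in WT mice on water and between -1.23 and 0.044 (median -0.45) with FB1. Col13a1 in KO mice read between -0.71 and 0.18 (median -0.016) on water and between -1.03 and 0.082 (median -0.70) with FB1. Col13a1 fell by 0.53 ± 0.21 in KO (adjusted p = 0.049) and its difference in WT was -0.68 ± 0.21, adjusted p = 0.0856, with overlapping groups in both. The other tested Col13a1 probes gave -0.58 ± 0.25 and 0.012 ± 0.11 in WT and -0.50 ± 0.25 and -0.30 ± 0.11 in KO. The KO call was lost without any of 15 of the 24 arrays in turn (adjusted p up to 0.116). It was lost too with a block for slide (adjusted p = 0.059) or replicate number (adjusted p = 0.0641). Normexp correction, the authors' deposited values, no filter on dim probes and array weights also ended it. In WT mice Col17a1 lay between -3.91 and -3.45 (median -3.66) on water and between -4.07 and -3.42 (median -3.77) on FB1. In KO mice Col17a1 lay between -3.89 and -3.63 (median -3.87) on water and between -4.60 and -3.88 (median -4.25) on FB1. Col17a1 fell by 0.41 ± 0.12 in KO (adjusted p = 0.0104; -0.20 with normexp correction and -0.27 in the authors' deposited values) with overlap, and gave -0.13 ± 0.12, adjusted p = 0.615, in WT. Col7a1, the chain of anchoring fibrils, and Col26a1 were called in no comparison. FB1 gave -0.0079 ± 0.084 and -0.38 ± 0.13 in WT and -0.14 ± 0.084 and 0.0092 ± 0.13 in KO.

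The genotypes were compared without and with the toxin. Without FB1, 3 of the 31 were higher in KO than in WT, where 7.21% of all genes were, and 1 was lower, where 8.02% were (15.2% either way), so that the count was near the share of all genes. The rises were Col6a5, Col4a5 and Col20a1 (1.41-fold, 0.50 ± 0.095, adjusted p = 0.000567), and KO and WT arrays did not overlap for these 3 (7.93% of all genes do so). The fall was Col8a2. With FB1, 18 were higher and 2 lower in KO mice, where 14.5% of all genes were higher and 18.3% lower, and the arrays did not overlap for 10 (15.2% of all genes do so). The 3 rises without FB1 were all among these 18, of which they made 16.7%. Of the 18, 16 were also among the 19 that FB1 raised in KO mice, but both comparisons use the arrays of KO mice on FB1. Over the 22 genes well above background on every array, 13 were higher and 2 lower in KO mice with FB1. Among the 18, Col4a6 passed the filter only through KO mice on FB1, and Col2a1, Col5a2 and Col12a1 only through the FB1 groups. The Col4a6 call (1.54) ended under 4 settings, among them normexp correction (0.37) and the authors' deposited values (0.58). It also ended when any of several single arrays was left out, with adjusted p up to 0.0961. Side by side, FB1 in KO against KO over WT with FB1 gave 2.75 ± 0.32 and 1.70 ± 0.32 for Col1a1, 1.78 ± 0.23 and 1.01 ± 0.23 for Col3a1, and 1.67 ± 0.18 and 1.14 ± 0.18 for Col6a3. For KO over WT with FB1 the other tested probes gave 0.55 and 0.52 for Col3a1 and -0.49 and 1.12 for Col6a3. In WT and KO mice on FB1 the ranges of Col1a1, Col1a2 and Col3a1 still overlapped, through WT replicate 1. Falls with FB1 in KO against WT were those of Col17a1 (-0.44 ± 0.12, adjusted p = 0.00743) and Col18a1 (-0.23 ± 0.06, adjusted p = 0.00581). For Col18a1 this too turned, to 0.011 with quantile normalisation and 0.029 in the authors' deposited values. Within slide 2 alone Col6a2 gave -0.022 between KO and WT on FB1, against 0.79 ± 0.21 over all slides, and the other 19 genes called there kept their direction in each slide.

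A second Col27a1 probe gave another picture of genotype. The probe used for the gene, at chromosome 4, 62995485 to 62995544, differed by 0.26 ± 0.19, adjusted p = 0.43, between KO and WT on water. The other, at chromosome 4, 62953608 to 62953667, was well above background on all 12 WT arrays and on no KO array. It lay between -5.37 and -3.34 (median -4.62) in WT mice on water and between -4.77 and -3.64 (median -4.21) in WT mice on FB1, so that KO was at least 2.52-fold lower without FB1 and at least 3.1-fold lower with it. FB1 did not change it past the threshold in WT (0.27 ± 0.26). The mean of both probes would put Col27a1 at -1.53 between KO and WT on water and -1.64 on FB1.

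Whether the response to FB1 depended on genotype was tested as the difference of the FB1 effects. Of the 31 genes, 4 had a larger effect in KO than in WT and 0 a smaller one, where 4.46% of all genes were called higher and 4.84% lower (9.3% either way). Before adjustment 15 were higher and 2 lower, where 2405 and 3035 of all 22088 genes were. The 4 were Col5a3 (1.54 ± 0.44, adjusted p = 0.0289), Col1a2 (0.92 ± 0.24, adjusted p = 0.021), Col4a5 (0.74 ± 0.22, adjusted p = 0.039) and Col4a1 (0.71 ± 0.21, adjusted p = 0.03). Their FB1 effects, given above, were positive in KO mice for all 4, while in WT mice Col1a2 alone was called. Col1a1 and Col6a3 had differences of 1.22 ± 0.45, adjusted p = 0.0884, and 0.70 ± 0.26, adjusted p = 0.0881. Col1a1 passed the threshold without WT on water replicate 3, WT on FB1 replicate 1, KO on water replicate 4 or KO on FB1 replicate 3 (1.39 to 1.46). With normexp correction Col1a1, Col5a1, Col5a2 and Col16a1 passed as well. Over all genes the share of these calls that were higher was 47.9%, and 58.7% in the authors' deposited values. The count was not stable. It was 1 without KO on FB1 replicate 1 or 6, 7 without WT on water replicate 3, 8 without KO on water replicate 4 or KO on FB1 replicate 3, and 10 without WT on FB1 replicate 1, and 2 without any of WT on water replicate 6, WT on FB1 replicate 2 or KO on water replicate 1 or 5. Col1a2 stayed called without each of the 24 arrays (0.84 to 1.08), but not in the authors' deposited values (0.89, adjusted p = 0.0564) or with the mean of its probes (0.60, adjusted p = 0.176). The call of Col5a3 was lost without WT on water replicate 1, WT on FB1 replicate 4, KO on water replicate 5 or KO on FB1 replicate 1 or 6. Col5a3, Col4a1 and Col4a5 lost the call without 5, 8 and 12 of the 24 arrays in turn, with adjusted p up to 0.0517, 0.0578 and 0.0755. These genes lost it too with no filter on dim probes and with a block for replicate number. For Col4a5 it also ended with the mean of its probes (0.52, adjusted p = 0.422) and with array weights (0.65, adjusted p = 0.064). The other tested Col4a5 probe, dim in WT mice, gave 0.39 ± 0.43 for FB1 in WT and 0.69 ± 0.43 in KO. The median difference over the 31 genes was 0.57, -0.12 and 0.75 in slides 1, 2 and 3, and so turned negative in slide 2. All 4 called genes kept a positive difference within each slide, which for Col1a2 was 1.15, 0.11 and 1.49 in slides 1, 2 and 3. For the genes not called, the test does not show that the effects were alike.

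Arrays within a group were not equally rich in collagen signal. Among the 19 genes that rose with FB1 in KO mice, WT on FB1 replicate 1 was the highest of its group for 11 and the lowest for 0, with a median of 0.43 above the group mean. KO on water replicate 4 was the highest of its group for 16 (median 0.48 above) and WT on water replicate 3 the lowest of its group for 10 (median -0.32). KO on FB1 replicates 1, 2 and 6 were the highest for 6, 7 and 6 genes. Without WT on FB1 replicate 1 the count of rises in WT was 6, and that in KO stayed at 19. Some genes not called in WT passed when 1 array was left out, Col12a1 without KO on water replicate 3, Col13a1 (lower) without WT on FB1 replicate 4, Col2a1 without WT on FB1 replicate 6 or KO on water replicate 2, Col4a4 without WT on FB1 replicate 2 and Col5a2 without WT on water replicate 1. Over all 24 single omissions the rises numbered 6 to 9 in WT and 18 to 20 in KO.

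The 13 collagen chain genes not tested were Col4a3 of type IV, Col6a4, Col6a6 and Col28a1 of the type VI group, Col10a1 of the short-chain group, Col11a1 and Col24a1 of the fibril-forming group, Col9a1, Col9a3 and Col19a1 of the fibril-associated group, Col15a1 of the multiplexins, and Col23a1 and Col25a1 of the transmembrane group. None of their probes passed the filter, which sets no level and does not show that they are absent.

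Genes that make a chain into collagen were taken as a list of 28, of which 26 were tested. In KO mice FB1 raised 13 and lowered 4 of them (median 0.23, against -0.075 over all genes), where 16.5% of all genes rose and 24.6% fell. In WT mice it raised 3 and lowered 0 (median 0.089), where 2.06% of all genes rose and 0.824% fell. Plod2, the lysyl hydroxylase that sets the kind of fibril cross-links, rose in KO (1.66 ± 0.21, adjusted p = 2.24e-06) and gave 0.63 ± 0.21, adjusted p = 0.103, in WT, being well above background on 3 of 6 arrays of each water group. Plod2 passed the filter only through the FB1 groups. Fkbp10, its folding partner, rose in KO (1.53 ± 0.17, adjusted p = 4.41e-07) and in WT (0.71 ± 0.17, adjusted p = 0.0172). Adamts2, which cuts the amino end of procollagen, did so too (1.04 ± 0.15, adjusted p = 1.13e-05, and 0.64 ± 0.15, adjusted p = 0.017). Colgalt2, a galactosyltransferase of collagen lysines, fell by 2.61 ± 0.22 on the log2 scale in KO (adjusted p = 3.45e-08), with 4 of 6 KO arrays on FB1 well above background. In this list 2 of 26 genes had a higher and 2 a lower difference of the FB1 effects, where 4.46% and 4.84% of all genes did. Among them were Colgalt2 (-1.997 ± 0.32, adjusted p = 0.000743), Plod2 (1.03 ± 0.29, adjusted p = 0.0277) and Fkbp10 (0.82 ± 0.23, adjusted p = 0.0288). Of 9 tested genes for collagen receptors and uptake, 5 rose and 0 fell in KO (median 0.26; of all genes 16.5% rose and 24.6% fell) and 0 were called in WT (median 0.20), where 2 were higher before adjustment. They included the receptor kinase Ddr1 (2.19 ± 0.20, adjusted p = 4.46e-08), the integrin chain Itga11 (1.42 ± 0.22, adjusted p = 3.22e-05), the uptake receptor Mrc2 (2.17 ± 0.50, adjusted p = 0.0015) and the inhibitory receptor Lair1 (0.90 ± 0.26, adjusted p = 0.00712). Mrc2 was well above background on 2 WT and 4 KO arrays on water. It passed the filter only through KO mice on FB1, the group in which it was high. Of the receptors, the difference of the FB1 effects was called for Ddr1 (1.49 ± 0.28, adjusted p = 0.0025).

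**Figure D4:**
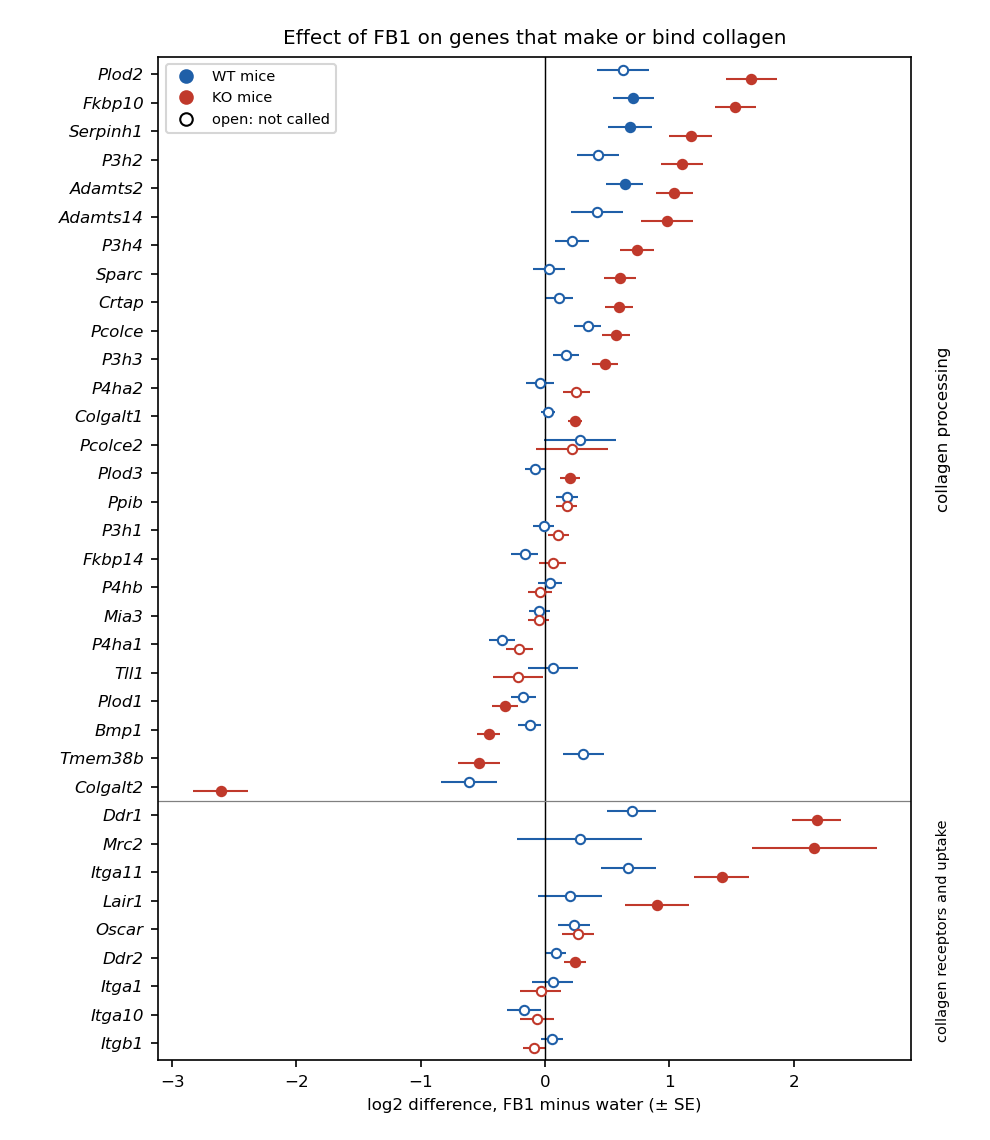
Log2 difference between FB1 and water for 26 genes of collagen processing and 9 of collagen receptors and uptake, with its SE (bars), in WT mice (blue) and KO mice (red), 6 arrays per group. Filled circles were called and open ones were not. In KO mice 13 processing genes and 5 receptor genes rose, and Colgalt2 fell by 2.61.

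Markers of the cells that can make collagen moved as well, and their part in the result was not tested. Of 17 stellate cell markers 9 rose and 2 fell with FB1 in KO (median 0.37; of all genes 16.5% rose and 24.6% fell), among them Cygb (1.06 ± 0.13, adjusted p = 1.29e-06) and Pdgfrb (0.95 ± 0.13, adjusted p = 6.12e-06), while Angptl6 fell (-0.58 ± 0.11, adjusted p = 0.000185). In WT 1 rose and 0 fell, where 2.06% of all genes rose and 0.824% fell. Before adjustment 6 were higher and 0 lower in WT. The mean level of the 17 markers per array ranged from 0.31 to 0.48 in WT on water, 0.52 to 0.73 in WT on FB1, 0.27 to 0.51 in KO on water and 0.66 to 0.87 in KO on FB1. Of 12 markers of portal fibroblasts and mesothelium 8 rose and 0 fell in KO (median 1.14; of all genes 16.5% rose), led by Cd34 (1.22 ± 0.15, adjusted p = 1.78e-06), elastin, Eln (1.23 ± 0.17, adjusted p = 7.72e-06), and Dpt (1.36 ± 0.24, adjusted p = 0.000126), and 0 were called in WT, where 0 were also past an unadjusted p of 0.05. Among the 8 rises, Upk1b passed the filter only through KO mice on FB1, and it was named after its values were seen. The mean level of the list of portal fibroblasts and mesothelium ranged from -3.14 to -2.20 in KO on water and from -2.08 to -1.36 in KO on FB1, and from -2.56 to -2.06 and -2.73 to -1.998 in the WT groups. Of 8 smooth muscle and myofibroblast markers 2 rose in KO, where 16.5% of all genes did, Tagln (1.46 ± 0.18, adjusted p = 1.51e-06) and Des (0.47 ± 0.12, adjusted p = 0.00256), and Acta2, the defining actin of myofibroblasts, gave 0.062 ± 0.13, adjusted p = 0.73. In WT 0 of these 8 rose, also before adjustment, and 1 fell, where 0.824% of all genes did. Before adjustment 3 were lower. The list means ranged from -1.41 to -0.77 in WT on water, -1.77 to -1.35 in WT on FB1, -1.34 to -1.07 in KO on water and -1.23 to -0.63 in KO on FB1. Acta2 lies outside the rule for named genes and was chosen after its value was seen. Gli1 of the portal list and Lmod1 of the smooth muscle list were not tested, being dim.

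Markers of other liver cells gave a mixed record. Of 12 sinusoidal endothelial markers 0 rose and 7 fell in KO (median -0.65; of all genes 16.5% rose and 24.6% fell), with Stab2 at -0.94 ± 0.13, adjusted p = 7.72e-06, and 0 were called in WT, where 1 was higher and 5 lower before adjustment. Their mean level ranged from 1.24 to 1.85 in KO on water and from 0.69 to 1.26 in KO on FB1, and from 1.58 to 1.95 and 0.90 to 1.96 in the WT groups. Of 7 vascular endothelial markers 2 rose and 5 fell in KO (16.5% and 24.6% of all genes), Cd34 being in both this list and that of portal cells, and 0 were called in WT, where 2 were lower before adjustment. Their means ranged from -0.16 to 0.20 in KO on water and -0.35 to 0.20 in KO on FB1. Of 8 cholangiocyte markers 1 rose in KO, where 16.5% of all genes did, Sox9 (1.89 ± 0.27, adjusted p = 1.2e-05), and 0 in WT, where 1 was higher before adjustment, with list means from -2.61 to -1.97 in KO on water and -2.26 to -1.43 in KO on FB1. Of 15 macrophage markers 8 rose and 1 fell in KO (16.5% and 24.6% of all genes) and 4 were called higher in WT (2.06% of all genes), with Trem2 at 2.87 ± 0.29, adjusted p = 1.89e-07, in KO and 1.77 ± 0.29, adjusted p = 0.00102, in WT. Of the 4 in WT, Gpnmb was well above background on 0 WT arrays on water and 1 on FB1, so its WT values set no level. It was named after its values were seen. Without FB1, 5 macrophage markers were higher and 8 lower in KO than in WT (7.21% and 8.02% of all genes). Their mean level ranged from -0.091 to 1.21 in WT on water, 1.06 to 1.71 in WT on FB1, -0.10 to 0.42 in KO on water and 0.73 to 1.31 in KO on FB1. Of 11 hepatocyte markers 0 rose and 4 fell in KO (16.5% and 24.6% of all genes), with Cps1 at -0.83 ± 0.14, adjusted p = 9e-05, and 0 were called in WT, where 2 were lower before adjustment. Of the lists for neighbouring tissues, 3 of 6 adipose and 3 of 7 pancreas genes were tested. In KO 1 adipose gene rose and 2 pancreas genes fell (16.5% and 24.6% of all genes), and in WT 0 of either were called, also before adjustment. The part of these lists in the collagen result was not tested.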

How the data were processed

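Liver RNA of 24 mice was hybridised to 1 one-colour Agilent array each, 6 mice per group. Per the file headers, each scanner file holds the intensity of every spot after background subtraction and spatial detrending within the array, together with 0 or 1 flags, and it was made with Agilent Feature Extraction (10.10.1.1, per the submitters' processing notes) against mm9. The authors also deposited log2 values for the same arrays, already normalised between arrays. They served as an alternative; 24 of 24 columns correlated best with their own array (lowest r of deviations 0.91), and how they were normalised is not stated in the labels or headers. Here log2 of the processed signal was centred on each array's 75th percentile (490 to 685 on the intensity scale). Spots marked as outliers were left out, spots of a probe were averaged, and a gene was represented by its tested probe of highest mean level. Probes with at least 4 values in every group and well above background on all arrays of at least 1 group were tested (33417 of 56605). This gave 22088 genes. A model of 4 group means was fitted in R 4.3.3 (limma 3.58.1, lmFit and eBayes; files read with data.table, version 1.17.8), 5 contrasts were taken, and p-values were adjusted over all genes by the Benjamini-Hochberg method. Figures were drawn with matplotlib 3.10.9 and tables read with pandas 2.3.3 in Python 3.11.15.

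The script was tested on simulated data for FB1 in KO over 22088 genes. Of 100 genes changed by 1 and 100 changed by 2 on the log2 scale it recovered 85% and 99%. It made 10 false calls among the genes left unchanged. In the simulated comparison of KO against WT without FB1, where no gene was changed, it made 0 calls. The number of arrays limits the precision. The replicates are separate mice. The members and lists were chosen with earlier results of these data known. Every tested collagen gene is accounted for, with values by group for those called in any contrast. Of the other lists at most 4 members (collagen processing, receptors) or 3 (cell types) of smallest p for FB1 in KO were named, beside Nr1h3 and Nr1h2. Alternatives were quantile normalisation, scaling to the median, normexp correction (offset 50), the deposited log2 values, a stricter filter and none, keeping outlier spots, averaging all tested probes of a gene, a block for slide and one for replicate number, single slides, the compared groups alone, single arrays left out, an intensity trend, array weights and 2 stricter thresholds. Promoter windows came from RefSeq's annotation of GRCm38.p6.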

Additional observations from a re-analysis of the deposited data

Results flagged for a closer look

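Each gene's 6 values in a group were examined for 1 value far from the others by Dixon's criterion. Of 124 sets, 13 held such a value, where chance gives about 1 in 20. WT on FB1 replicate 1 was the high value for Col1a2 (3.35, the next at 2.57), Col6a1 (1.337, the next at 0.7798), Col6a2 (-1.591, the next at -2.641) and Col6a3 (0.5738, the next at 0.1481). These 4 genes are not independent readings, since they come from 1 array. KO on water replicate 4 was the high value for Col6a1 (0.7458) and WT on water replicate 3 the low one (-0.6361). Col4a2 was high in WT on water replicate 5 (0.4496), and Col6a5 was low in KO on FB1 replicate 4 (-1.558). Col11a2 was high in WT on FB1 replicate 5 (-2.712) and in KO on water replicate 1 (-3.559), and Col9a2 was high in WT on FB1 replicate 5 (-2.604). Col12a1, a gene dim on water, was low in WT on water replicate 2 (-6.067) and in KO on water replicate 3 (-6.299).

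The FB1 effect was larger in KO than in WT mice, by the test of that difference in limma, for Col1a2 (0.9182), Col4a1 (0.7147), Col4a5 (0.738) and Col5a3 (1.537), all on the log2 scale.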

How the results depend on the processing

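The counts of genes that rose stayed within 1.5 times under the settings tried, except as follows. Rises with FB1 in WT numbered 5 at an adjusted p under 0.01. Calls of a larger FB1 effect in KO numbered 8 with normexp correction, 2 with the mean of a gene's probes, 1 with no filter on dim probes and 0 at an adjusted p under 0.01. Falls with FB1 in KO numbered 3 with normexp correction and with the authors' deposited values, 2 at an adjusted p under 0.01 and 1 at 1.5-fold. Falls in KO against WT without FB1 numbered 0 with normexp correction, with the authors' values and with probes above background on all arrays, and 2 with the mean of probes and with array weights. With FB1 they numbered 1 with quantile normalisation and with normexp correction, and 0 at 1.5-fold. The direction of Col18a1 turned for FB1 in KO with quantile normalisation (0.029), normexp correction (0.014) and the authors' values (0.14), and for KO against WT with FB1 with quantile normalisation (0.011) and the authors' values (0.029). That of Col27a1 between genotypes turned with the mean of probes (-1.53 without and -1.64 with FB1), which takes in its second probe, and that of Col6a2 in KO against WT with FB1 within slide 2 (-0.022). Otherwise the cause was not tested. Leaving out 1 array gave 6 to 9 rises and 0 to 1 falls for FB1 in WT, 18 to 20 and 3 to 5 for FB1 in KO, 3 to 5 and 1 to 2 for KO against WT without FB1, 16 to 18 and 2 to 3 with FB1, and 1 to 10 and 0 to 1 for the difference of the effects. Replicate numbers were not a pairing: 5 of 36 same-numbered pairs of arrays had a correlation of deviations above 0.1 (-0.20 to 0.24), and 5 of 24 arrays correlated best with their own number. With the replicate number as a block, 1 gene had a larger FB1 effect in KO. With normexp correction (offset 50) the called differences of Col2a1, Col4a6, Col5a2, Col6a5, Col8a2 and Col12a1 shrank by more than 1.5 times, and the cause was not tested. Those of Col4a4, Col4a5, Col6a2 and Col17a1 for FB1 in KO did so too. Of these, Col4a5, Col6a2 and Col17a1 were well above background on all 24 arrays.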
